A study of Mus musculus with 8 samples.

Results

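The genes described here are 32 genes of sterol and fatty acid synthesis controlled by sterol regulatory element-binding proteins (SREBPs), chosen by gene symbol for their place in the pathway, with earlier results of these data known. All 32 were among the 17364 gene symbols of the series, and all 32 were among the 12462 genes tested after genes with low counts were removed. They comprise 18 sterol synthesis enzymes in order of pathway step, 5 regulators or sterol carriers (Srebf2, Srebf1, Scap, Insig1 and Stard4) and 9 genes of fatty acid synthesis, elongation and desaturation. RNA was sequenced from bone-marrow-derived macrophages, macrophages grown in culture from mouse bone marrow cells, in 8 libraries. Of these, 4 came from Sept2C111A mice treated with TNF-α and 4 from wild-type mice treated with TNF-α, so both groups had received 30 ng/ml for 24 h and no untreated cells enter any value. The allele name gives an alanine in place of a cysteine in septin 2, a filament-forming GTPase. The title of the series places the question in S-nitrosylated septin 2, macrophage inflammation and migration. The labels used here state no zygosity, age or sex of the mice. Nothing in the labels says that the libraries of a group came from separate mice or cultures, so p-values measure the spread between these libraries, which may be technical.

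Animal cells build cholesterol from acetyl-CoA through mevalonate, farnesyl diphosphate and squalene, and they build fatty acids from the same acetyl-CoA through malonyl-CoA. SREBPs are membrane-bound transcription factors that SCAP escorts out of the endoplasmic reticulum when sterols are scarce, and that INSIG proteins retain there when sterols are plentiful. SREBP2, made from Srebf2, acts mainly on sterol genes, and SREBP1, made from Srebf1, mainly on fatty acid genes. In macrophages the pathway is known for its link to inflammatory and interferon signalling.

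Each library held 19543958 to 21288493 expected counts, reads assigned to genes by a model that shares out ambiguous reads. Levels below are CPM, the counts scaled to a common normalized library size, and fold changes are log2 of Sept2C111A over wild type. Called means an edgeR adjusted p under 0.05 over all tested genes. The targeted gene, listed as Septin2, measured 187, 195, 207 and 163 CPM in Sept2C111A libraries 1 to 4, against 228, 226, 216 and 234 CPM in wild-type libraries 1 to 4 (log2 fold change -0.27, SE 0.076, adjusted p = 0.063). Gene counts do not show the base change, so it was not checked. Sept2C111A libraries 2 and 3 stood apart from the other 6 on the first principal component, which held 45.1% of the variance, at -28.2 and -36.6, where Sept2C111A libraries 1 and 4 lay at -0.87 and 1.98 and wild-type libraries at 11.2 to 19.4. Counts below are therefore also given without libraries 2 and 3.

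Sterol synthesis RNA was lower in Sept2C111A macrophages for 10 of the 18 enzymes listed, before and after squalene. The list does not hold every enzyme of the pathway. Of the 18 sterol enzymes, 10 were called lower, 0 were called higher and 8 were not called. Among the 5 regulators and carriers 3 were called lower, and among the 9 fatty acid genes 2 were, with 8 of the 9 fold changes negative. The difference between the sterol and fatty acid genes was not tested. Over all genes tested, 3.03% were called lower and 3.43% higher, so the 15 of 32 members called lower stand against a background of 3.03%, and 0 of 32 were called higher. In 19 of the 32 members the highest Sept2C111A library was below the lowest wild-type library, an arrangement found in 8.47% of all tested genes. The median log2 fold change was -0.43 for the sterol enzymes, -0.58 for the regulators and carriers and -0.26 for the fatty acid genes, against 0.0086 for all tested genes. Without Sept2C111A libraries 2 and 3, 9 sterol enzymes, 3 regulators or carriers and 0 fatty acid genes were called lower.

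**Figure D1:**
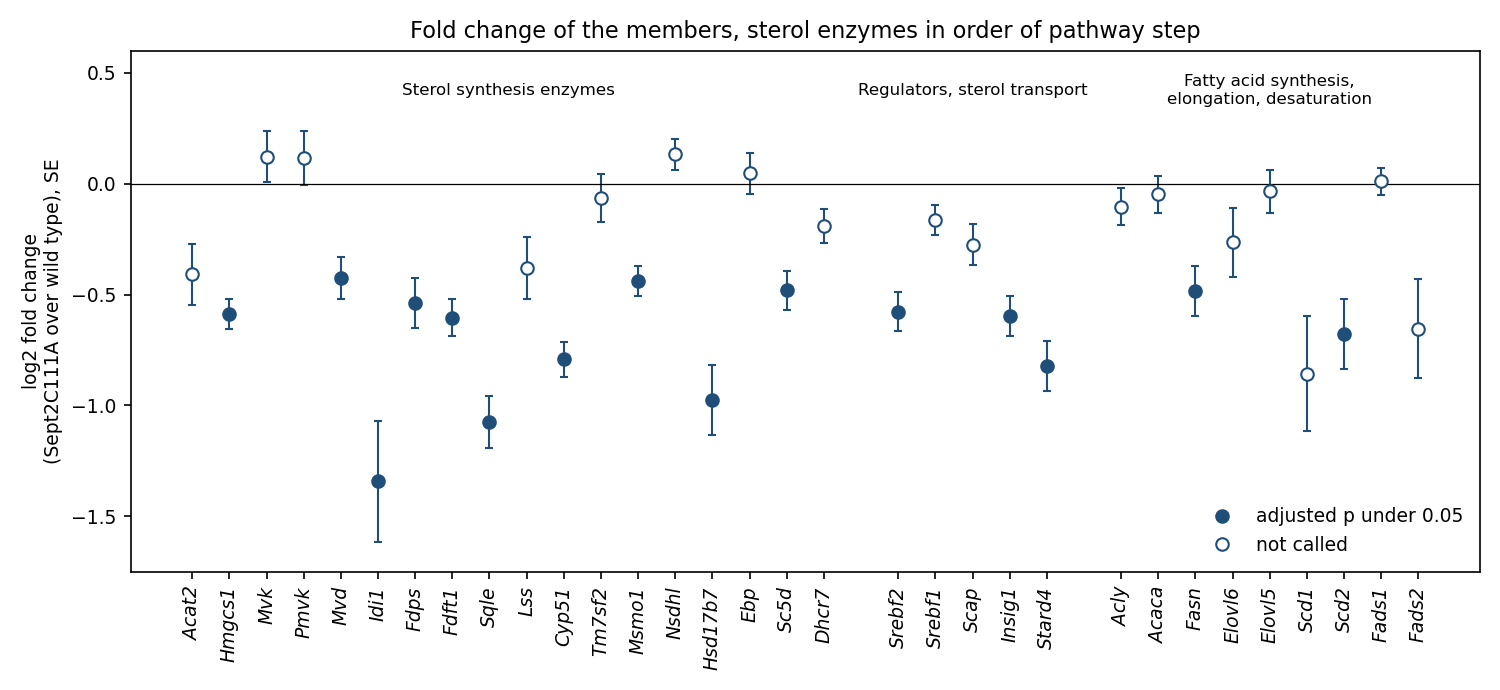
Log2 fold change of Sept2C111A over wild type (y axis) for each of the 32 members (x axis), with bars of 1 SE; filled points were called at an adjusted p under 0.05 in edgeR and open points were not. Sterol enzymes run in pathway order, and the largest falls among those called, -1.34 for Idi1 and -1.07 for Sqle, lie before and after squalene.

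Letters upstream of the members' starts are shown here, and the rule that chose the genes did not read them. The rule took genes known to be controlled by SREBPs, so a share of such letters above that of all promoters may come from that choice. RefSeq promoters of the GRCm38.p6 build matched 25 of the 32 members by symbol, with 31 entries, and the 250 bases before each start were searched on both strands. In 25 of the 31 entries the first 20 bases after the start lay in a GENCODE transcript of the gene. Among members called lower, those of Hmgcs1 and Sc5d did not, so their starts are less certain. Of the 15 members called lower, 10 were searched, and Fdps, Fdft1, Sqle, Stard4 and Scd2 were not. The letters CCAAT, the box that the factor NF-Y is known to bind beside sterol elements, were in all 10 entries of the members called lower, in 10 of the 21 entries of members not called and in 33.8% of all 32851 promoters. By gene, this was 10 of 10 searched members called lower and 9 of 15 searched members not called, and Mvk, Nsdhl and Ebp were among those 9. TCACNCCAC, the core of the sterol regulatory element, was in 1 entry, that of Hmgcs1, and in 1.05% of all promoters. GGGCGG, a GC box, was in 9 of 10 entries of members called lower, in 13 of 21 of those not called and in 32.7% of all. CACGTG, an E-box, was in 3 of 10, in 3 of 21 and in 6.02% of all. The motifs were searched independently. These are descriptions of letters in short windows that are also rich in G and C, and a window without them shows nothing about a factor.

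The 5 windows below, each outside the annotated span of its gene, run 5′ to 3′ on the gene's strand and end at the base before the start, with CCAAT in capitals on either strand. On the opposite strand it reads ATTGG, and the sterol element core is in capitals as well. The first 4 belong to members that fell and the last, Acly, to a member that was not called and whose window holds neither motif. Acly does not stand for all members not called, since 9 of the 15 searched hold CCAAT. Hmgcs1 lies at chr13:119690101-119690350 on the plus strand, Idi1 at chr13:8885356-8885605 on the plus strand and Cyp51 at chr5:4104698-4104947 on the minus strand. Srebf2 lies at chr15:82147019-82147268 on the plus strand and Acly at chr11:100528001-100528250 on the minus strand. The CCAAT letters begin 237, 176 and 45 bases before the start in Hmgcs1, 45 and 14 in Idi1, 29 in Cyp51 and 135 in Srebf2, and the sterol element core of Hmgcs1 begins 137 bases before it.
Hmgcs1: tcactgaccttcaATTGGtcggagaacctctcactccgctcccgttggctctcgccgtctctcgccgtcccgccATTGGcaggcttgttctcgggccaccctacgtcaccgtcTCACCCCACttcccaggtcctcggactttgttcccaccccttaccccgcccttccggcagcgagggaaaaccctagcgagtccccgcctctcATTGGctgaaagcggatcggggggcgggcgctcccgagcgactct
Idi1: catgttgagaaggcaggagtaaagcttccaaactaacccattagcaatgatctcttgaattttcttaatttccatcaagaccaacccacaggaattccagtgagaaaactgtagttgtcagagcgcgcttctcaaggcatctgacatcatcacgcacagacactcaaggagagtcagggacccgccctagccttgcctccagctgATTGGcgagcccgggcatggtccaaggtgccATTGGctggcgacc
Cyp51: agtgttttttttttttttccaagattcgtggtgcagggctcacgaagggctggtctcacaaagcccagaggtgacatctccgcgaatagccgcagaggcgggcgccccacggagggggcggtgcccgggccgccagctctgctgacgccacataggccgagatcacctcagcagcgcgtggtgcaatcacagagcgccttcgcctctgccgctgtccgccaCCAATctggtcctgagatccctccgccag
Srebf2: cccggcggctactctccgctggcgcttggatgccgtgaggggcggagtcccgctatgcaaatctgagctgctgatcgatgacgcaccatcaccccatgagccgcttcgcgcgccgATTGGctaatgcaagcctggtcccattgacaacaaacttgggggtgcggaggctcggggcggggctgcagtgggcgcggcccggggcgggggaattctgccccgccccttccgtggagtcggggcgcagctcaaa
Acly: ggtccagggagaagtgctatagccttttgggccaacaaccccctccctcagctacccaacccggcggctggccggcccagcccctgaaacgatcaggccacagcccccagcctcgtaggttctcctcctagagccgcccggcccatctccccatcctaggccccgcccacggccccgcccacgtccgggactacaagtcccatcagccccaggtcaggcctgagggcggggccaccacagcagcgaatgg

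The first segment of the pathway runs from acetyl-CoA to squalene, and 5 of the 8 members in it were called lower. Hmgcs1, the synthase that makes HMG-CoA (chromosome 13, 119690351 to 119708260, mm10), measured 41.3, 36.9, 37.4 and 37.4 CPM in Sept2C111A libraries 1 to 4, against 60.0, 60.5, 53.2 and 56.1 CPM in wild-type libraries 1 to 4. The groups did not overlap, and library 1 was the highest of the Sept2C111A libraries (log2 fold change -0.59, SE 0.068, adjusted p = 0.00083). Idi1, the isomerase of isopentenyl diphosphate, had the largest log2 fold change of the 32, -1.34 (SE 0.27, adjusted p = 0.018). Its levels were low and its groups nearly touched, at 2.37, 1.48, 1.48 and 1.70 CPM in Sept2C111A libraries, against 2.39, 5.60, 4.34 and 5.58 CPM in wild-type libraries. Wild-type library 1 thus lay at the level of Sept2C111A library 1, far below the other 3 wild-type libraries.

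Fdft1, the squalene synthase, measured 21.8, 19.2, 21.8 and 17.4 CPM in Sept2C111A libraries, against 30.3, 30.1, 29.4 and 31.9 CPM in wild-type libraries (log2 fold change -0.60, SE 0.084, adjusted p = 0.0022). Fdps, which makes farnesyl diphosphate, averaged 19.9 ± 3.52 CPM in Sept2C111A and 28.9 ± 0.693 CPM in wild-type libraries (SD, n = 4 each; log2 fold change -0.54, edgeR adjusted p = 0.020). Mvd, the mevalonate diphosphate decarboxylase, averaged 20.2 ± 2.64 CPM in Sept2C111A and 27.1 ± 1.22 CPM in wild-type libraries (log2 fold change -0.42, adjusted p = 0.027). For Fdft1, Fdps and Mvd, library 4 was the lowest of the Sept2C111A libraries and no library of 1 group reached the other. The 2 kinases before Mvd were not called, and their groups overlapped. Mvk, mevalonate kinase, averaged 11.5 ± 1.67 CPM in Sept2C111A and 10.5 ± 0.893 CPM in wild-type libraries (adjusted p = 0.55). Pmvk, phosphomevalonate kinase, ran from 8.75 to 12.5 CPM across Sept2C111A libraries and 8.78 to 9.74 CPM across wild-type libraries (adjusted p = 0.59). Acat2, the cytosolic thiolase at the head of the pathway, had 8.94 CPM in Sept2C111A library 1 and 6.04 to 6.66 CPM in the other 3, against 8.07 to 9.95 CPM in wild-type libraries, and was not called (log2 fold change -0.41, adjusted p = 0.098). Mouse Acat2 has a close copy, Acat3, so the split of reads between them is uncertain.

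After squalene, 5 of the 10 members were called lower. Sqle, the epoxidase that makes the first oxygenated sterol precursor (chromosome 15, 59315092 to 59331193), measured 15.2, 10.1, 10.9 and 12.8 CPM in Sept2C111A libraries, against 26.0, 26.1, 27.3 and 24.1 CPM in wild-type libraries. Each Sept2C111A library was at 39.1% to 58.9% of the wild-type mean, with no overlap (log2 fold change -1.07, SE 0.12, adjusted p = 0.00069). Cyp51, the lanosterol demethylase, measured 24.4, 21.7, 22.4 and 19.3 CPM in Sept2C111A libraries, against 39.8, 39.0, 36.6 and 36.6 CPM in wild-type libraries (log2 fold change -0.79, SE 0.079, adjusted p = 0.00043, the smallest of the 32). Hsd17b7, a keto reductase of the later steps, measured 4.35, 2.54, 3.46 and 4.40 CPM in Sept2C111A libraries, against 7.11, 7.60, 7.36 and 7.06 CPM in wild-type libraries. Its fall was larger in libraries 2 and 3 than in libraries 1 and 4 (log2 fold change -0.97, SE 0.16, adjusted p = 0.0054).

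Msmo1, the methylsterol monooxygenase, had the highest level per length of the 18 enzymes in both groups, at 25.7 CPM per kb in Sept2C111A and 34.8 CPM per kb in wild-type libraries, and fell by 0.44 on the log2 scale (SE 0.066, adjusted p = 0.0039). Sc5d, the sterol desaturase near the end of the pathway, averaged 15.3 ± 1.81 CPM in Sept2C111A and 21.4 ± 0.653 CPM in wild-type libraries (log2 fold change -0.48, adjusted p = 0.011). The other 5 members after squalene were not called. Ebp, the sterol isomerase, averaged 35.6 ± 4.33 CPM in Sept2C111A and 34.5 ± 2.55 CPM in wild-type libraries, and Tm7sf2, a sterol reductase, averaged 6.27 ± 0.343 CPM in Sept2C111A and 6.55 ± 0.673 CPM in wild-type libraries. Nsdhl, a sterol dehydrogenase, was the 1 member with every Sept2C111A library above every wild-type library, at 15.4 to 16.7 CPM against 13.9 to 15.2 CPM, and was not called (log2 fold change 0.13, adjusted p = 0.28). Nsdhl and Ebp are the 2 members on the X chromosome. Lss, the lanosterol synthase, and Dhcr7, the last reductase, had no overlap between groups and were not called, with log2 fold changes of -0.38 and -0.19 and adjusted p = 0.12 and 0.15.

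**Figure D2:**
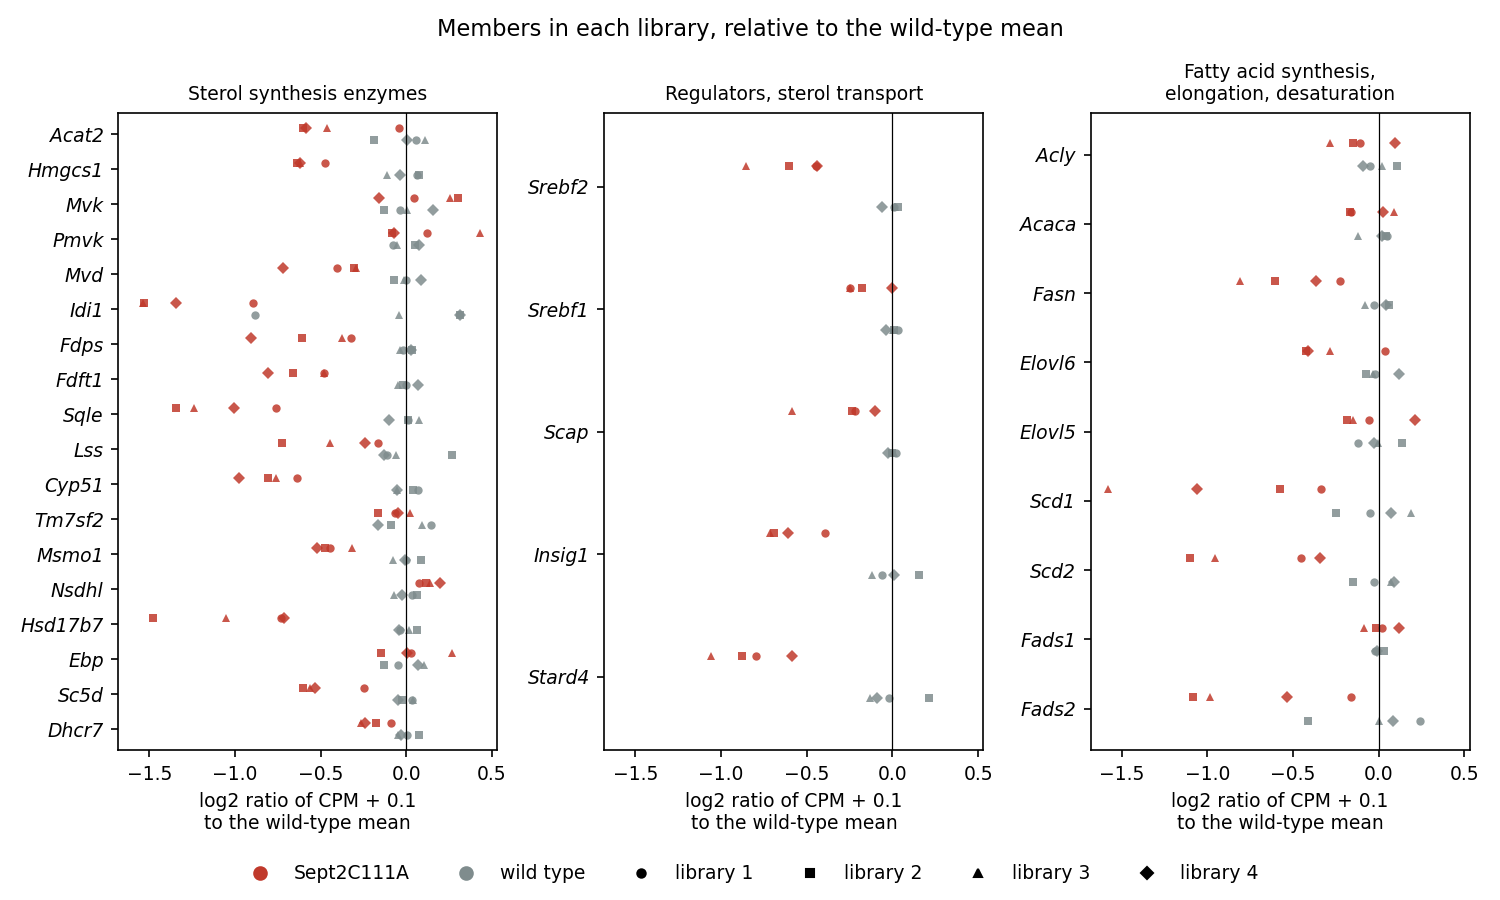
Each point is 1 library's log2 ratio of CPM + 0.1 to the wild-type mean (x axis) for the member on the y axis, in red for Sept2C111A and grey for wild type, with a symbol for the library number. Sqle, Cyp51, Hmgcs1 and Srebf2 have their red points clear of the grey ones, and Mvk, Ebp and Fads1 have them mixed.

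The call of Mvd was lost, at an adjusted p of 0.053 to 0.090 in edgeR, without any 1 wild-type library, without Sept2C111A library 2 and with the sample number as a block. Fdps lost its call when Sept2C111A library 2 or any 1 wild-type library was left out (adjusted p 0.056 to 0.074). Idi1 lost it when wild-type library 2, 3 or 4, Sept2C111A library 2, or both Sept2C111A libraries 2 and 3 were left out, and with the block (adjusted p 0.051 to 0.088). The other 7, namely Hmgcs1, Fdft1, Sqle, Cyp51, Msmo1, Hsd17b7 and Sc5d, were called under all 15 alternatives that kept the threshold of 0.05. At an adjusted p under 0.01, Sc5d was not called and the other 6 were.

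All 5 regulators and carriers had negative fold changes, and 3 were called. Srebf2, which encodes SREBP2, measured 101, 91.1, 76.3 and 102 CPM in Sept2C111A libraries, against 139, 142, 140 and 133 CPM in wild-type libraries (log2 fold change -0.58, SE 0.088, adjusted p = 0.0040). Insig1, the retention protein and itself an SREBP target, measured 33.9, 27.6, 27.1 and 29.2 CPM in Sept2C111A libraries, against 42.6, 49.7, 40.9 and 44.9 CPM in wild-type libraries (log2 fold change -0.60, SE 0.089, adjusted p = 0.0036). Stard4, a carrier of cholesterol between membranes, measured 12.2, 11.5, 10.1 and 14.0 CPM in Sept2C111A libraries, against 20.8, 24.6, 19.3 and 19.9 CPM in wild-type libraries (log2 fold change -0.82, SE 0.11, adjusted p = 0.0021). These 3 were separated between the groups in every library and were called under the same 15 alternatives and at an adjusted p under 0.01. Srebf1 averaged 56.0 ± 4.64 CPM in Sept2C111A and 62.7 ± 1.23 CPM in wild-type libraries, with Sept2C111A library 4 inside the wild-type range (log2 fold change -0.16, adjusted p = 0.17). Scap averaged 51.3 ± 7.05 CPM in Sept2C111A and 62.1 ± 0.881 CPM in wild-type libraries, without overlap (log2 fold change -0.28, adjusted p = 0.097). Both were called lower only when Sept2C111A library 4 was left out (adjusted p = 0.030 and 0.026), which gave 5 of 5, and the difference between the changes of Srebf2 and Srebf1 was not tested. In bulk libraries, fewer cells of a type and less RNA per cell cannot be told apart.

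**Figure D3:**
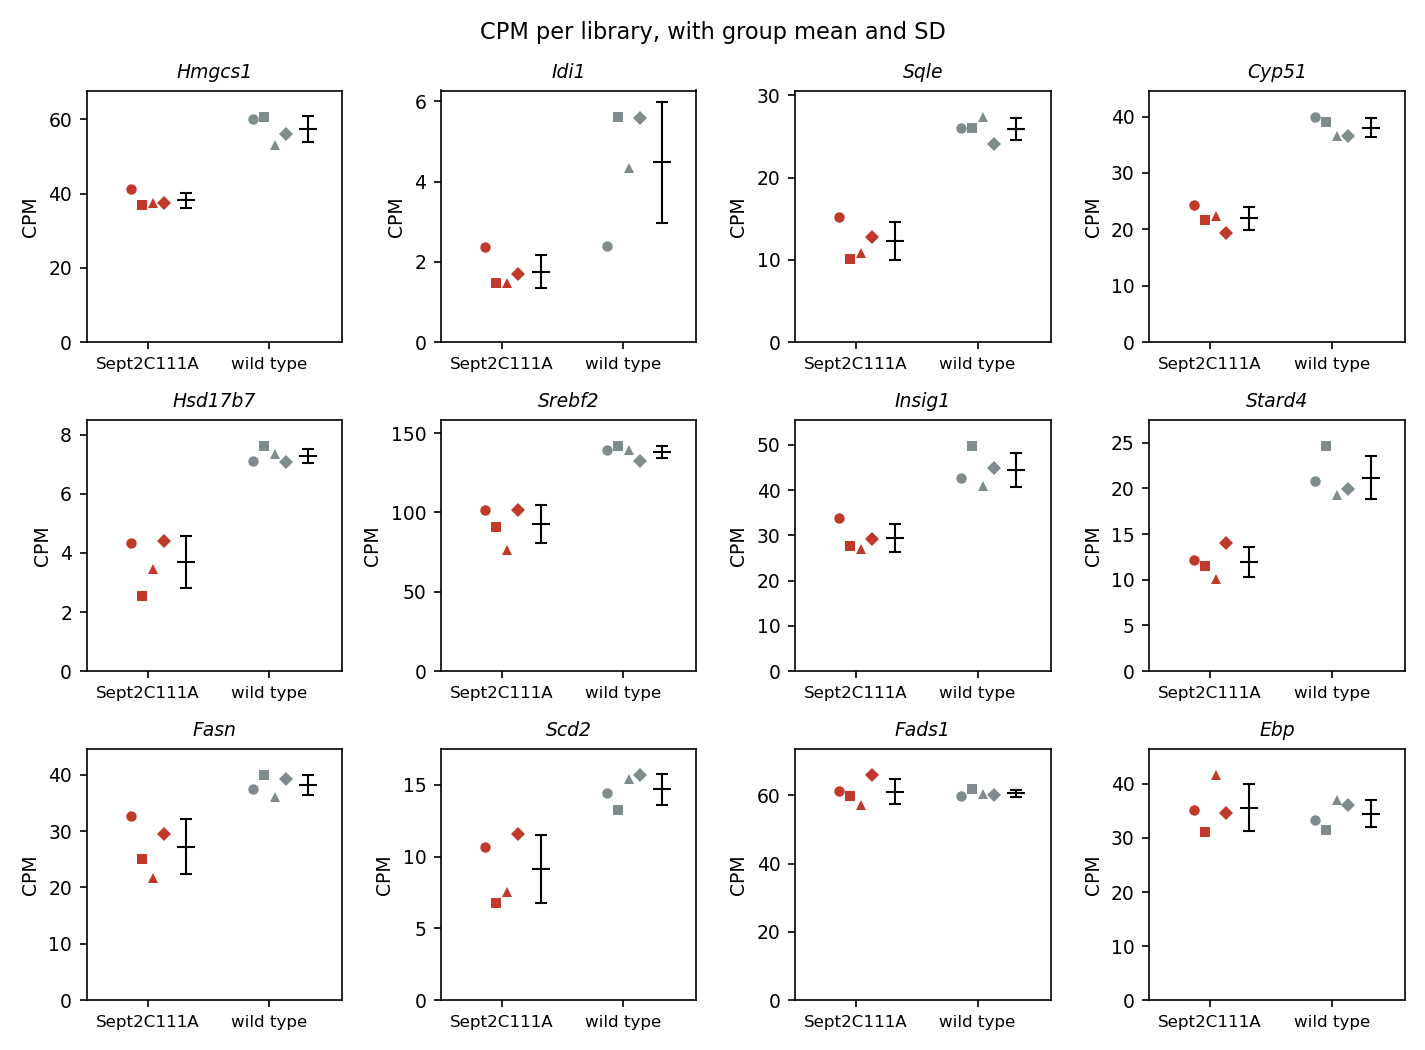
CPM in each library (y axis, from 0) for 12 members, Sept2C111A in red on the left and wild type in grey on the right, with the symbol of each library number as circle, square, triangle and diamond for 1 to 4, and the mean and SD of 4 libraries as black bars. The groups separate in the panels from Hmgcs1 to Scd2, most narrowly in Idi1, and overlap for Fads1 and Ebp.

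Among the fatty acid genes, the 2 called were Fasn and Scd2. Fasn, the fatty acid synthase, measured 32.7, 25.0, 21.8 and 29.6 CPM in Sept2C111A libraries, against 37.4, 39.9, 36.1 and 39.3 CPM in wild-type libraries (log2 fold change -0.48, SE 0.11, adjusted p = 0.030). Scd2, a stearoyl-CoA desaturase, measured 10.7, 6.78, 7.53 and 11.6 CPM in Sept2C111A libraries, against 14.4, 13.3, 15.4 and 15.7 CPM in wild-type libraries (log2 fold change -0.68, SE 0.16, adjusted p = 0.030). In both genes libraries 2 and 3 were the lowest and libraries 1 and 4 lay nearer to wild type. Scd1, its near copy, was scarce, at 1.70, 1.43, 0.661 and 0.993 CPM in Sept2C111A libraries, against 2.10, 1.82, 2.50 and 2.29 CPM in wild-type libraries, and was not called in edgeR (log2 fold change -0.86, SE 0.26, adjusted p = 0.074), though it was by DESeq2 and without Sept2C111A library 1. The Scd genes resemble each other, so their separate levels are uncertain. Leaving out Sept2C111A library 2, both Sept2C111A libraries 2 and 3, or any of wild-type libraries 1, 3 and 4 ended both calls (adjusted p 0.059 to 0.093 for Fasn and 0.053 to 0.0999 for Scd2), and leaving out wild-type library 2 ended that of Fasn.

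The genes that supply and extend fatty acids were not called. Acly, the citrate lyase that makes cytosolic acetyl-CoA, averaged 97.2 ± 10.8 CPM in Sept2C111A and 104 ± 6.27 CPM in wild-type libraries (log2 fold change -0.10, SE 0.083). Acaca, which makes malonyl-CoA, averaged 18.8 ± 1.71 CPM in Sept2C111A and 19.5 ± 1.04 CPM in wild-type libraries (log2 fold change -0.048, SE 0.084). The elongase gene Elovl5 had a log2 fold change of -0.034 (SE 0.096), which turned positive in 4 alternatives, and Elovl6, another elongase, -0.26 (SE 0.16), neither called. The desaturases of polyunsaturated fatty acids differed in their values. Fads1 averaged 61.1 ± 3.64 CPM in Sept2C111A and 60.6 ± 0.959 CPM in wild-type libraries (log2 fold change 0.01, SE 0.061). Fads2 had 3.41, 1.75, 1.88 and 2.60 CPM in Sept2C111A libraries, against 4.53, 2.85, 3.82 and 4.06 CPM in wild-type libraries, with overlap at wild-type library 2 (log2 fold change -0.65, SE 0.23, adjusted p = 0.11). The difference between the 2 desaturases was not tested. Without Sept2C111A library 1, Scd1 and Fads2 were called as well, which made 4 fatty acid genes lower.

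By library, the medians of the sterol and fatty acid genes ranked the Sept2C111A libraries alike, from library 2, the lowest, through 4 and 3 to 1, while their summed levels ranked them differently. Over the sterol enzymes, the median log2 ratio to the wild-type mean was -0.29, -0.60, -0.41 and -0.56 in Sept2C111A libraries 1 to 4, against -0.0028, 0.036, -0.041 and -0.018 in wild-type libraries 1 to 4. Over the fatty acid genes it was -0.16, -0.42, -0.29 and -0.34 in Sept2C111A libraries, against -0.027, 0.032, -0.0029 and 0.042 in wild-type libraries. The sterol median was thus the lower of the 2 in each Sept2C111A library, by 0.13, 0.18, 0.13 and 0.22, while in wild-type libraries the difference ran from -0.06 to 0.025. Wild-type medians are kept small by construction, since the ratios are taken to the mean of these same wild-type libraries. The difference was not tested. The summed level of the sterol enzymes was 332, 297, 329 and 292 CPM in Sept2C111A libraries, against 414 to 428 CPM in wild-type libraries, so the groups did not overlap. For the fatty acid genes the sums were 255, 234, 224 and 278 CPM in Sept2C111A libraries, against 269 to 287 CPM in wild-type libraries, with library 4 inside the wild-type range. Most of this sum was Acly and Fads1, neither of them called. Among Sept2C111A libraries both were highest in library 4, at 112 and 65.8 CPM. Sept2C111A library 4 was the lowest of its group for 6 of 18 sterol enzymes and the highest for 4 of 9 fatty acid genes and 4 of 5 regulators and carriers. Library 2 was the lowest for 9 sterol enzymes and 5 fatty acid genes, and library 3 for 4 of the 5 regulators and carriers.

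**Figure D4:**
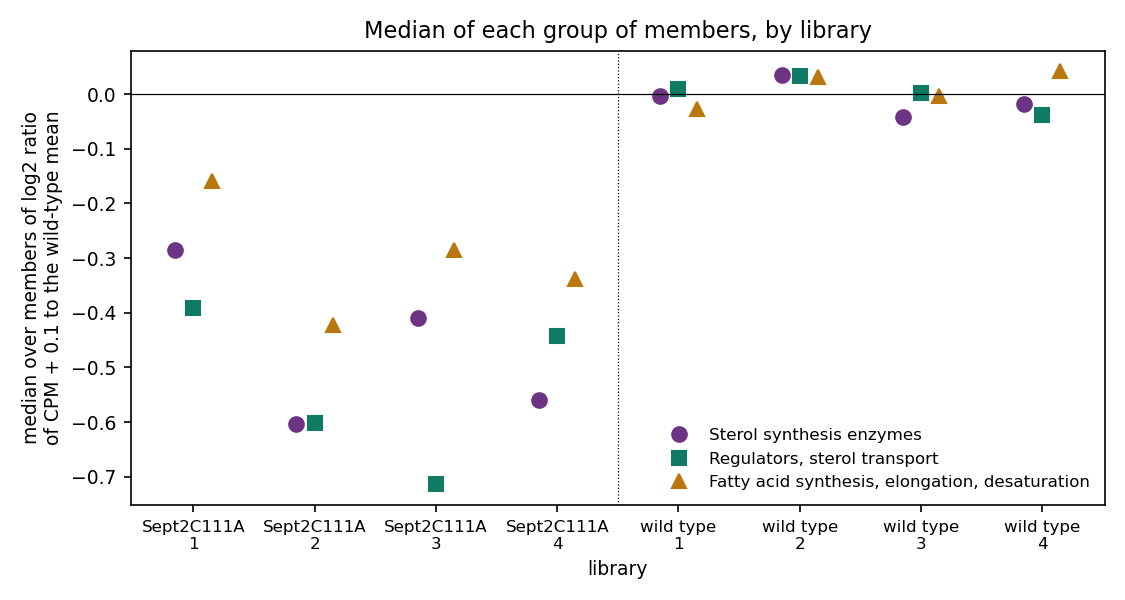
Median over members of the log2 ratio of CPM + 0.1 to the wild-type mean (y axis) in each library (x axis), for sterol enzymes (circles), regulators and carriers (squares) and fatty acid genes (triangles). The 4 Sept2C111A libraries lie between -0.71 and -0.16 and the wild-type libraries within 0.042 of 0.

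Other genes of the pathway behaved unevenly. Of 24 further SREBP targets and regulators, 20 were tested, of which 4 were called lower, 1 higher and 15 not. Over all genes tested, 3.03% were called lower and 3.43% higher. The lipid chaperone gene Fabp5 rose, at 219 ± 34.2 CPM in Sept2C111A against 146 ± 12.4 CPM in wild-type libraries (log2 fold change 0.59, adjusted p = 0.012). Aacs, an acetoacetyl-CoA synthetase, was among those that fell, with a log2 fold change of -0.33, and was named after its values were seen. It lost its call when Sept2C111A library 2, both Sept2C111A libraries 2 and 3, or wild-type library 1 or 3 was left out, and with the block (adjusted p 0.056 to 0.078). The median of the 20 was -0.0034, so the falls concern a minority of this list. It mixes targets with regulators, so its median does not describe the targets alone. In the non-sterol branch after farnesyl diphosphate, 0 of 11 genes were called by edgeR and 2 had an unadjusted p under 0.05. Its most abundant gene, Nus1 of dolichol synthesis, averaged 80.0 ± 4.15 CPM in Sept2C111A and 83.1 ± 2.01 CPM in wild-type libraries. Among 15 tested genes of other fatty acid synthesis and activation steps, 0 were called by edgeR and 5 had an unadjusted p under 0.05, with a median log2 fold change of -0.11. Beside the counts of both lists, 3092 of all 12462 tested genes had an unadjusted edgeR p under 0.05. The elongase gene Elovl1, the most abundant, averaged 160 ± 11.3 CPM in Sept2C111A and 173 ± 10.7 CPM in wild-type libraries.

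The cultures expressed their labelled cell type's markers, and some markers of the macrophage, stromal and cycling lists were called alongside the sterol genes. The 8 macrophage markers summed to 20460 to 22450 CPM in Sept2C111A and 22680 to 24460 CPM in wild-type libraries, without overlap, with 1 called higher, Fcgr1, and 0 lower. Most of that sum was Lyz2, at 12370 ± 897 CPM in Sept2C111A and 14370 ± 498 CPM in wild-type libraries, which was not called. The fold changes of the list were 4 negative and 4 positive, so the sum does not describe its markers as a set. Of 9 tested fibroblast and stromal markers, 2 were called lower, Col1a1 and Postn, all 9 had negative fold changes, and the list of 10 summed to 3493 to 4372 CPM in Sept2C111A and 4370 to 5632 CPM in wild-type libraries; none was at 0 in every library. Col1a1 lost its call in 7 of 15 alternatives (adjusted p 0.056 to 0.17), namely without Sept2C111A library 2 or 3, without both, without wild-type library 1, 3 or 4, and with the block. Postn lost it in 4, those without Sept2C111A library 2 or wild-type library 1, 3 or 4 (adjusted p 0.056 to 0.069). Of 7 markers of cycling cells, Mki67 was called lower, at 28.9 ± 3.64 CPM in Sept2C111A and 48.4 ± 1.46 CPM in wild-type libraries, and the list summed to 191 to 225 CPM in Sept2C111A and 229 to 243 CPM in wild-type libraries. The other 6 were not called, but 6 of the 7 fold changes were negative, with a median of -0.41 on the log2 scale. Of the 7 markers, 4 had an unadjusted edgeR p under 0.05, as did 3092 of all 12462 tested genes. Most of the sum was Pcna, which was level between the groups, at 151.9 ± 13.7 CPM in Sept2C111A and 152 ± 6.1 CPM in wild-type libraries. The 3 megakaryocyte markers summed to 386 to 575 CPM in Sept2C111A and 511 to 747 CPM in wild-type libraries, with overlap and 0 called. Nearly all of that sum was Pf4, at 474 ± 83.2 CPM in Sept2C111A and 647 ± 101 CPM in wild-type libraries. All 3 fold changes were negative, but that of Itga2b was -0.01 on the log2 scale (edgeR adjusted p = 0.97). Whether macrophage, stromal, cycling or megakaryocyte content differed between the genotypes was not tested, nor was its part in the sterol result. The 5 adipocyte markers, whose cells are rich in fatty acid synthesis, had at most 1 read in any library. Neutrophil markers summed to at most 8.18 CPM and dendritic cell markers to at most 3.45 CPM with 0 called in both lists, and no B cell or T cell marker passed 2 reads.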

How the data were processed

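RNA was measured in 8 libraries of TNF-treated mouse bone-marrow-derived macrophages, 4 per genotype, grouped by sample title. The authors deposited expected counts for each gene symbol, unscaled for depth or length. Per the submitters' processing notes, mm10 was the build and the tools included RSEM 1.3.1, Bowtie2 and DESeq2 1.4.5; mRNA was enriched on oligo(dT) beads, per the labels' protocols. No source used here states the annotation or strandedness, so overlapping antisense genes and close copies cannot be told apart.

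Expected counts were rounded to whole numbers. The filter on low counts was filterByExpr (minimum count 10), and libraries were scaled with TMM factors. A gene without reads lies below 0.14 to 0.159 CPM, the level of 3 counts, which covers counting error only. In R 4.3.3, edgeR 4.0.16 compared Sept2C111A with wild type by its quasi-likelihood test (two-sided, genotype alone in the model), and p-values were adjusted by Benjamini-Hochberg over all 12462 tested genes; 805 were called and 3092 had an unadjusted p under 0.05. SEs are the absolute log2 fold change over the root of F. Ratios to the wild-type mean used CPM + 0.1. Levels per kb used the longest coding transcript of GENCODE M21, and positions the RefSeq table of GRCm38, the mm10 build.

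The members and lists were chosen with earlier results of these data known, and so were the tests. All 32 members are reported; from other lists up to 3 called genes with the smallest adjusted p were named, or the most abundant where none was called. Some genes of the list of further SREBP targets enter its counts and median but are not reported here by name. Alternatives were RLE size factors, no filter, DESeq2 1.42.0, limma 3.58.1 voom, library sizes without the 20 most abundant genes, the sample number as a block, each library left out, Sept2C111A libraries 2 and 3 left out, and an adjusted p under 0.01. Tested on counts simulated for this comparison with 12389 genes tested, 99% of 100 genes changed by 1 on the log2 scale and 66% of 97 changed by 0.5 were called, with 7 false calls. The simulation gave all genes and both groups the same spread between libraries. No library was a copy of another: between replicates the chi-square per gene was 3.87 or more, against about 1 under sampling noise. It was 14.1 to 63.3 between Sept2C111A libraries and 3.87 to 9.73 between wild-type libraries, so the simulated shares need not hold for these data.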

Additional observations from a re-analysis of the deposited data

Results flagged for a closer look

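Within groups of 4 libraries, 64 sets of member levels were examined for a library far from the other 3, and chance marks about 1 set in 20. Hmgcs1 was marked in the Sept2C111A libraries, where library 1 had 41.3 CPM and the other 3 lay at 36.9 to 37.4 CPM, still below every wild-type library. Lss was marked in the wild-type libraries, where library 2 had 12.2 CPM and the other 3 lay at 9.26 to 9.71 CPM.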

How the results depend on the processing

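Over 15 alternatives, the count of sterol enzymes called lower ran from 7 to 11, against 10, and their median log2 fold change from -0.51 to -0.41; at an adjusted p under 0.01 the counts were 6 sterol enzymes, 0 fatty acid genes and 220 genes in all. Leaving out each library in turn gave 0 to 4 fatty acid genes called lower (medians -0.38 to -0.21), 3 to 5 regulators and carriers, and 266 to 2077 genes in all. Without Sept2C111A libraries 2 and 3, 0 fatty acid genes were called, their median was -0.17, and 492 genes were called in all. DESeq2 called 1450 genes in all. The samples share only a number: same-numbered libraries had correlations of -0.24 to 0.14 in their deviations, 1 of 4 Sept2C111A libraries correlated best with its own number, and the replicate block called 494 genes in all and 8 sterol enzymes. Signs turned for 5 genes that were never called. Elovl5 (leave-one-out range -0.12 to 0.021) was 0.017 without Sept2C111A library 2, 0.005 without Sept2C111A library 3, 0.021 without wild-type library 2 and 0.087 without Sept2C111A libraries 2 and 3. Leave-one-out ranges were -0.0056 to 0.18 for Pmvk and -0.034 to 0.11 for Ebp, negative without Sept2C111A library 3, and -0.023 to 0.043 for Fads1, negative without Sept2C111A library 4, and Mvk was -0.055 without Sept2C111A libraries 2 and 3. The cause was not tested, beyond the smaller number of libraries. Idi1, Scd1 and Fads2 rest on few reads, so their folds have wide errors.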

Other observations

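Genes that handle sterols after synthesis moved the other way from the synthesis enzymes in 2 cases. Of 9 genes for oxysterol synthesis and sterol storage or release, 2 were called higher, 0 lower and 7 not, where 3.43% of all tested genes were called higher and 3.03% lower. Cyp27a1, a mitochondrial sterol hydroxylase, measured 27.4, 35.3, 35.7 and 28.9 CPM in Sept2C111A libraries, against 18.2, 19.3, 19.1 and 21.1 CPM in wild-type libraries (log2 fold change 0.71, SE 0.099, edgeR adjusted p = 0.0022). Npc2, a lysosomal cholesterol carrier, measured 1091, 1389, 1455 and 1108 CPM in Sept2C111A libraries, against 810, 809, 837 and 876 CPM in wild-type libraries (log2 fold change 0.60, SE 0.099, adjusted p = 0.0063). Both were highest in Sept2C111A libraries 2 and 3, without overlap between the genotypes. Ch25h, the cholesterol hydroxylase of macrophages, was chosen after its values were seen; it averaged 13.4 ± 2.52 CPM in Sept2C111A and 18.6 ± 2.11 CPM in wild-type libraries and was not called (log2 fold change -0.47, adjusted p = 0.058).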
